A study of Mus musculus with 7 samples.

Results

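The adipocyte genes of the mammary fat pad were followed in bulk RNA of orthotopic EMT6 tumors, EMT6 being a mouse mammary carcinoma cell line that grows in immunocompetent Balb/c mice. The 10 genes were Adipoq, Plin1, Plin4, Car3, Cfd, Fabp4, Lep, Cidec, Pparg and Lpl, out of 53465 genes in the table of estimated counts, and they were read in all 7 libraries. They were chosen by their role in fat cells, with their values in these same libraries already known, so that their levels are given as a description without a test. Of the 10 genes, 6 passed the filter on low counts (Plin4, Car3, Cfd, Fabp4, Pparg and Lpl), and 4 did not (Adipoq, Plin1, Lep and Cidec). They were read in 2 groups of 5, a split made after the values were seen. Adipoq, Plin1, Lep, Cidec and Cfd are largely restricted to fat cells, and Plin4, Car3, Fabp4, Lpl and Pparg are also used by other tissues.

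RNA came from 3 tumors of the parental cells (EMT6-P, here P1 to P3) under isotype control antibody, from 3 tumors of the PD-L1 treatment-resistant variant (EMT6-PTR, here PTR1 to PTR3) under αPD-L1 antibody, and from 1 metastasis of the resistant variant under αPD-L1. All hosts were female Balb/c mice of 6 to 8 weeks that had received 500000 cells in the right inguinal mammary fat pad, and all were given antibody at 250 μg per mouse every 3 days, from day 1 until the endpoint. The variant was obtained from tumors that had regrown under continuous treatment. The labels write PDR where the study writes PTR. Each PTR sample differs from each P sample in both the cell variant and the antibody, and these cannot be told apart here. The labels number the tumors as replicates but do not say that each came from its own mouse, so p-values measure only the spread between these samples, which may be partly technical. The metastasis is 1 library without a replicate, and its labels name no organ of metastasis and give breast tumor tissue as its source.

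White adipocytes store triglyceride in a single large droplet. They take up fatty acids that lipoprotein lipase releases at the vessel wall, bind them in the cytoplasm, coat the droplet with perilipins and secrete hormones such as adiponectin and leptin. The program is switched on by the nuclear receptor PPARγ together with C/EBP factors. The mammary fat pad is mostly adipose tissue, in which a graft of this kind expands.

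Libraries held 20430110 to 25213472 estimated counts. Levels are given as CPM, the count divided by a library size that is adjusted to the upper quartile of each library, and 3 counts, the limit that a count of 0 allows, stood for 0.117 to 0.168 CPM. Intervals and this limit cover counting error only. Some libraries stood apart in other tissues' markers, which matters for several of the genes below. PTR1 held 5160 CPM summed over 10 skeletal muscle markers, P1 764 CPM and P3 439 CPM, while P2, PTR2, PTR3 and the metastasis held 4.44 to 16.3 CPM. PTR3 held 16100 CPM over 6 fibroblast markers against 3320 to 5940 CPM in the other 5 primary tumors. The 2 most abundant of these markers differed. Col3a1 stood at 9090 CPM in PTR3 against 735 to 2000 CPM, but Col1a1 at 2750 CPM against 2430 to 3720 CPM. PTR3 also held 617 CPM over 10 mammary epithelium markers against 2510 to 2710 CPM. The milk genes Csn2, Wap and Lalba were at or under 3 counts in every primary tumor. Krt8 and Krt18 led the mammary epithelium sum, and in a mammary carcinoma this sum cannot be read as host tissue alone. The metastasis held 8570 CPM over 9 lung alveolus and airway markers, led by the airway secretoglobin Scgb1a1 and the surfactant gene Sftpc, against 4.26 to 27.1 CPM in the primary tumors.

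The genes whose upstream sequences are shown were chosen after their values in these libraries were seen. Adipoq, Cfd, Lep and Cidec correlated with each other at 0.66 to 0.88. Plin4 separated the groups and correlated with Adipoq, Cfd, Lep and Cidec at -0.17, -0.45, 0.02 and -0.12. Lep and Cidec had 13 counts or fewer in every library, and Plin1, the remaining fat-restricted gene, is not printed. Each sequence is the 250 bases before the transcription start, from RefSeq on build GRCm38.p6, written 5′ to 3′ on the strand of the gene. The table held 7 of the 10 genes and did not list Car3, Fabp4 and Lpl. Capitals mark the C/EBP core, searched as TTGCNNAA on both strands, where N is any base.
Adipoq, chr16:23146286-23146535, plus strand: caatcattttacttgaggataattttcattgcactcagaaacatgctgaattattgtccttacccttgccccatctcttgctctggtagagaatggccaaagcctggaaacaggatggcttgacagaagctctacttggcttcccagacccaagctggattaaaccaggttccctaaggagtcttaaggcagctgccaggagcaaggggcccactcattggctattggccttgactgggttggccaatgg
Cfd, chr10:79890603-79890852, plus strand: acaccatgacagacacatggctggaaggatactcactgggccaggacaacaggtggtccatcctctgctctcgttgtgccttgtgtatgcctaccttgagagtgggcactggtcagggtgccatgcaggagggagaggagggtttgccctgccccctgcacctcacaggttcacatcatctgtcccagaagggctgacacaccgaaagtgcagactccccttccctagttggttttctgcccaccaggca
Lep, chr6:29059971-29060220, plus strand: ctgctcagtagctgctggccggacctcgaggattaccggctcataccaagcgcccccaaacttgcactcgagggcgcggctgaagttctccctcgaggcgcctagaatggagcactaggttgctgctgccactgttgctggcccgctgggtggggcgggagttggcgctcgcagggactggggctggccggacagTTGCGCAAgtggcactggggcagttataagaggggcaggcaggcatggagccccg
Cidec, chr6:113435761-113436010, minus strand, the first of its 2 listed starts: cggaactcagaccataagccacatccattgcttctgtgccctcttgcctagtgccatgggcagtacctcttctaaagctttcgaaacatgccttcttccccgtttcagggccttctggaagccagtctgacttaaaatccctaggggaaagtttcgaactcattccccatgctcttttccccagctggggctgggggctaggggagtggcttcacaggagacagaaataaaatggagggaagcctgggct
Plin4, chr17:56109783-56110032, minus strand: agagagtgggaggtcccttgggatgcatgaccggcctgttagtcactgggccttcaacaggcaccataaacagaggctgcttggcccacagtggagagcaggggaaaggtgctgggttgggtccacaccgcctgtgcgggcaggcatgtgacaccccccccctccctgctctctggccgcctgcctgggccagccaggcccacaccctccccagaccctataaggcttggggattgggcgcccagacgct
The core appeared once in the Lep sequence, beginning 55 bases before the start, and in none of the other sequences printed. It also appeared in sequences not printed, at 187 and 58 bases before the start of Plin1, at 198 bases before the second start of Cidec, and at 215 and 16 bases before the third start of Pparg. Over the 10 upstream sequences of the 7 genes, counting every listed start, 4 held the C/EBP core and 2, both of Pparg, held the nuclear receptor motif AGGTCA. Of all 32851 upstream sequences of this length, 9.56% held the core and 14.0% the nuclear receptor motif. A match is a description of letters and not a binding site.

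The genes most restricted to fat cells were low, and only P3 and PTR2 held their sum clearly above the other libraries. Plin1 and Lep stood at 6 counts or fewer in every library, so these defining fat cell genes were absent or close to it throughout, and Adipoq was at 0 in P2 and the metastasis. Adipoq, which encodes the fat cell hormone adiponectin, had 7, 0 and 21 counts in P1 to P3, 2, 29 and 1 counts in PTR1 to PTR3, and 0 in the metastasis. On the CPM scale this was 0.341, 0 and 0.987 in EMT6-P and 0.0868, 1.62 and 0.0391 in EMT6-PTR. P3 and PTR2 were the high libraries, 1 from each group, and the groups overlapped.

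Cfd, which encodes the serine protease adipsin of the alternative complement pathway, was the most abundant of the 5 fat-restricted genes, per length as well as in CPM. It stood at 1.17, 0.468 and 5.12 CPM in P1 to P3 and at 0.825, 4.92 and 0 CPM in PTR1 to PTR3. Its means were 2.25 ± 2.51 CPM in EMT6-P and 1.91 ± 2.63 CPM in EMT6-PTR (SD, n = 3 each), with a fitted log2 fold change of -0.26 (SE 1.51). The same libraries, P3 and PTR2, were high, and the sign turned with the tumors included: the log2 fold change was 1.20 without P3, 0.32 without PTR3 and 0.09 without PTR1, and -2.45 without PTR2.

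The remaining 3 were present at 13 counts or fewer. Lep, encoding the satiety hormone leptin, had 0, 0 and 2 counts in P1 to P3 and 1, 6 and 0 in PTR1 to PTR3. Cidec, a droplet fusion protein of white fat, had 3, 0 and 5 counts in P1 to P3, 0, 13 and 0 in PTR1 to PTR3 and 4 in the metastasis. PTR2 was highest for both genes. Plin1, the perilipin that coats the large droplet and gates lipolysis, had 2, 2 and 6 counts in P1 to P3 and 0, 1 and 0 in PTR1 to PTR3. Its PTR values all lay below its P values, but no library exceeded 6 counts and 3 counts is the limit that a 0 allows, so the order was not resolvable at this depth.

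Summed over these 5 genes, the 7 libraries held 36, 12 and 143 counts in P1 to P3, 22, 137 and 1 in PTR1 to PTR3, and 6 in the metastasis. Cfd alone made up 66.7, 83.3 and 76.2% of the sum in P1 to P3 and 86.4 and 64.2% in PTR1 and PTR2. In these libraries the sum and its interval are therefore largely those of Cfd. The sums were 1.75, 0.562 and 6.72 CPM in EMT6-P and 0.955, 7.65 and 0.0391 CPM in EMT6-PTR, with means of 3.01 ± 3.27 and 2.88 ± 4.16 CPM (SD, n = 3 each). The SD of each group exceeded its mean. The exact Poisson 95% intervals of P3 (5.67 to 7.92 CPM) and PTR2 (6.43 to 9.05 CPM) overlapped each other and lay above those of all other libraries, of which the next highest was P1 (1.23 to 2.43 CPM). PTR3 was lowest, with an interval of 0.000989 to 0.218 CPM. In bulk RNA, fewer fat cells in the sampled piece and less RNA per fat cell cannot be told apart.

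**Figure D1:**
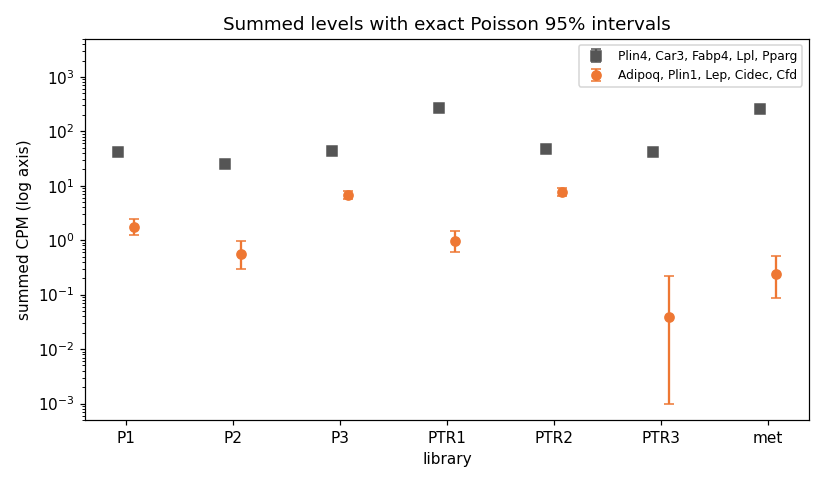
Summed CPM (log axis) of the 5 fat-restricted genes (circles) and of Plin4, Car3, Fabp4, Lpl and Pparg (squares) in each of the 7 libraries, with exact Poisson 95% intervals as bars. The fat-restricted sum peaks in P3 and PTR2, 1 library of each group, while the other sum peaks in PTR1 and the metastasis. Cfd makes up most of the fat-restricted sum in P1 to P3, PTR1 and PTR2.

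Across the 7 libraries the fat-restricted genes varied together. Pearson correlations of log2 CPM among their 10 pairs ran from 0.26 to 0.88 with a median of 0.73, given as a description over 7 libraries that share low counts. Adipoq correlated at 0.88 with Cfd, 0.84 with Lep, 0.82 with Cidec and 0.59 with Plin1. The same gene correlated at -0.04 with Pparg, -0.16 with Lpl and -0.17 with Plin4, and at 0.35 with Car3 and 0.29 with Fabp4. Cfd correlated at 0.60 with Car3. The lowest pair within the 5, Plin1 with Lep at 0.26, was below these last 3 values, and since the split was made after the values were seen it is no independent grouping. With the skeletal muscle markers Adipoq correlated at 0.22 and with the mammary epithelium markers at 0.53. Cfd correlated at 0.85 with the mammary epithelium sum, which was lowest in PTR3 and the metastasis (617 and 1020 CPM). The keratins Krt8 and Krt18 led that sum, at 1900 and 424 CPM in P1 and 505 and 73.8 CPM in PTR3. EMT6 is itself a mammary carcinoma, so carcinoma cells and host mammary epithelium cannot be told apart in this sum, and their part was not tested.

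Plin4, a perilipin of small and nascent lipid droplets that is made in fat and in muscle, gave the clearest separation of the groups. It stood at 3.36, 1.03 and 2.16 CPM in P1 to P3 and at 14.8, 6.70 and 18.8 CPM in PTR1 to PTR3. Every EMT6-PTR tumor lay above every EMT6-P tumor, with means of 13.4 ± 6.16 and 2.18 ± 1.17 CPM (SD, n = 3 each). The fitted log2 fold change was 2.62 (SE 0.56), and 2.28 to 3.07 when any 1 tumor was left out. The metastasis held 9.27 CPM, inside the range of the PTR tumors. The order of the tumors was not that of the fat-restricted genes: PTR3, the highest library for Plin4, was the lowest for their sum. Plin4 correlated over 7 libraries at 0.67 with the fibroblast marker sum, -0.61 with the mammary epithelium sum and 0.36 with the lung sum. Its correlations with the endothelium, macrophage and muscle sums were 0.25, 0.02 and -0.04. With Fabp4 it correlated at 0.73, and with Plin1, at 6 counts or fewer in every library, at -0.81. The part of these tissues in the Plin4 values was not tested. The fibroblast sum was 3320, 3560 and 4470 CPM in P1 to P3 and 4030, 5940 and 16100 CPM in PTR1 to PTR3, all 6 markers were detected in every library, and 0 of the 6 separated the groups.

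Fabp4, the fatty acid binding protein of the fat cell cytoplasm that macrophages and capillary endothelium also make, was the highest of the 10 genes per length in the EMT6-P tumors. It stood at 14.9, 9.69 and 18.6 CPM in P1 to P3 and at 29.9, 19.4 and 20.4 CPM in PTR1 to PTR3. The groups did not overlap, but the gap between P3 (18.6 CPM) and PTR2 (19.4 CPM) was far smaller than the SD of either group (4.46 CPM in EMT6-P, 5.82 CPM in EMT6-PTR). The log2 fold change was 0.69 (SE 0.30), and 0.46 without PTR1. Macrophage markers summed to 1260 to 1500 CPM in EMT6-P and 1130 to 1480 CPM in EMT6-PTR, and endothelium markers to 159 to 195 CPM and 154 to 214 CPM. All 8 markers of each list were detected in every library, and Fabp4 correlated with the 2 sums at 0.00 and -0.12. With the skeletal muscle sum, which like Fabp4 was highest in PTR1, it correlated at 0.50. Its correlations with the mammary epithelium, lung and fibroblast sums were -0.03, -0.14 and 0.17. The part of these tissues in the Fabp4 values was not tested.

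Car3, the cytoplasmic carbonic anhydrase of adipocytes and slow skeletal muscle, had the widest range of the 10 genes among the primary tumors. It stood at 11.9, 1.40 and 10.5 CPM in P1 to P3 and at 191, 2.40 and 0.117 CPM in PTR1 to PTR3, with 0.0786 CPM in the metastasis. A single tumor, PTR1, held most of the signal, and P1 and P3 came next. The means were 7.94 ± 5.70 CPM in EMT6-P and 64.4 ± 109 CPM in EMT6-PTR (SD, n = 3 each), with a log2 fold change of 3.02 (SE 2.06) that became -2.71 without PTR1. The groups overlapped. The skeletal muscle markers moved with Car3 (r = 0.94 over 7 libraries): their sum was 764, 16.3 and 439 CPM in P1 to P3 and 5160, 9.5 and 7.42 CPM in PTR1 to PTR3. All 10 muscle markers were detected in the EMT6-P tumors and in PTR1, 5 of 10 were at 0 in PTR2, 2 in PTR3 and 3 in the metastasis. The most abundant muscle markers were Acta1, skeletal actin, at 1650 CPM in PTR1 against 245 CPM or less elsewhere, and Atp2a1, the calcium pump of fast fibers, at 694 CPM in PTR1 against 118 CPM or less. The part of muscle in the Car3 values was not tested.

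**Figure D2:**
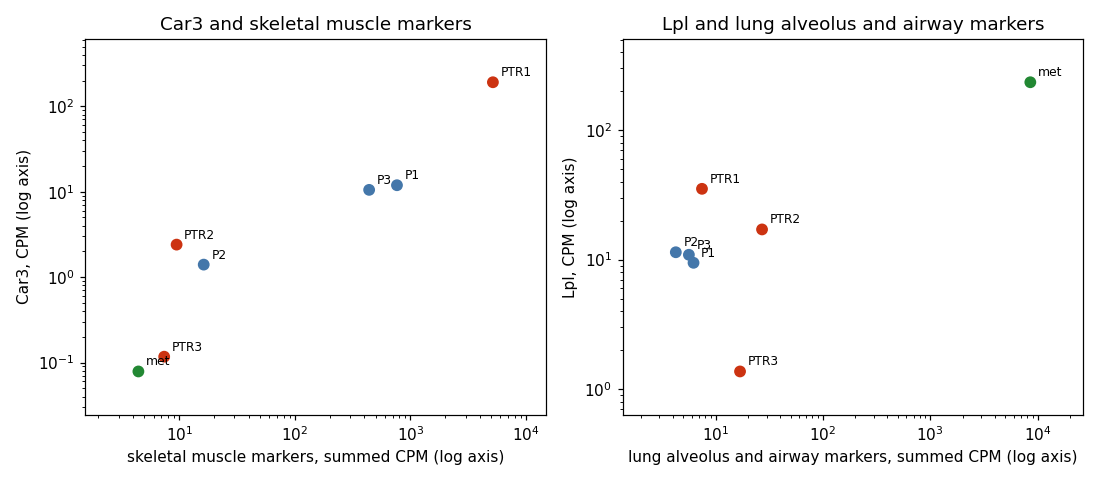
Left, Car3 against the summed CPM of 10 skeletal muscle markers; right, Lpl against the summed CPM of 9 lung markers; both axes are logarithmic and each point is 1 of the 7 libraries. Car3 and the muscle sum are both highest in PTR1, and Lpl and the lung sum are both highest in the metastasis.

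Lpl, the lipoprotein lipase that fat, muscle and macrophages secrete to the capillary surface, was steady among the EMT6-P tumors and scattered among the EMT6-PTR tumors. It stood at 9.45, 11.4 and 10.9 CPM in P1 to P3 and at 35.2, 17.1 and 1.37 CPM in PTR1 to PTR3. The mean was 10.6 ± 0.997 CPM in EMT6-P and 17.9 ± 16.9 CPM in EMT6-PTR (SD, n = 3 each). PTR1 and PTR2 lay above and PTR3 below every EMT6-P tumor, the log2 fold change was 0.76 (SE 0.92), and it was -0.21 without PTR1 and 1.31 without PTR3.

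Pparg, the master transcription factor of fat cell differentiation, was low in all primary tumors. It stood at 1.22, 1.17 and 1.03 CPM in P1 to P3 and at 0.347, 1.79 and 1.45 CPM in PTR1 to PTR3, which is 8 to 37 counts per tumor. The groups overlapped, with a log2 fold change of 0.06 (SE 0.58). It was lowest where Car3 was highest, in PTR1, and correlated at -0.87 with Car3 and -0.84 with the muscle sum.

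**Figure D3:**
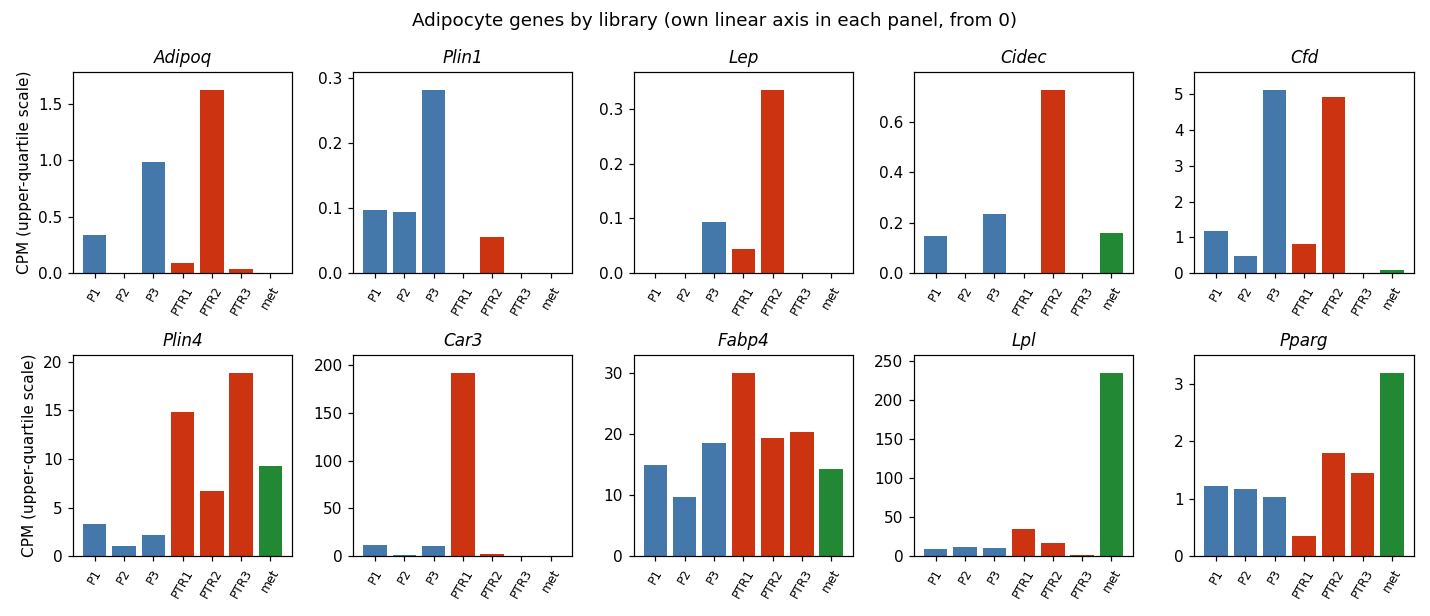
CPM of each of the 10 adipocyte genes in P1 to P3, PTR1 to PTR3 and the metastasis (met), 1 panel per gene with its own linear axis from 0; each bar is 1 library. The top row holds the 5 fat-restricted genes, which peak in P3 or PTR2, and the bottom row shows Plin4 above all EMT6-P tumors in PTR1 to PTR3, Car3 high in PTR1 and Lpl high in the metastasis.

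Counting over all 10 genes, the 3 EMT6-PTR tumors all lay above the 3 EMT6-P tumors for 2 (Plin4 and Fabp4) and all below for 1 (Plin1). Among the 15645 genes tested, of which Plin1 is not one, 9.47% were above and 11.8% below in this sense. Of the 6 genes that passed the filter, a mean at least 2-fold higher was fitted for Plin4 and Car3, where 6.27% of all genes tested were that much higher. For Car3 this rests on PTR1, and its difference in mean log2 CPM was -0.32. The median over the 10 genes of the difference in mean log2 CPM was -0.09, against a spread of 1.21 (SD) among the 3 PTR tumors in the same median. Its sign turned with the tumors included, from -0.57 without PTR2 and -0.36 without P2 to 0.12 without P1, 0.25 without P3, 0.44 without PTR1 and 0.72 without PTR3. As differences from the EMT6-P mean, the medians of the 10 genes were 0.10, -0.70 and 0.68 in P1 to P3 and -0.26, 1.20 and -1.23 in PTR1 to PTR3, so the tumors of each group fell on both sides of it. The sum of all 10 was 42.6, 25.2 and 49.9 CPM in P1 to P3 and 272, 55.1 and 42.1 CPM in PTR1 to PTR3. Car3 alone made up 70.1% of the sum in PTR1.

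Per kilobase of the principal transcript, the scale on which genes can be compared, the order in the EMT6-P tumors ran from Fabp4 to Lep. The EMT6-P means were 16.1 CPM per kb for Fabp4, 4.73 for Car3, 2.57 for Lpl and 2.44 for Cfd. Below 1 CPM per kb lay Pparg at 0.645, Plin4 at 0.379 and Adipoq at 0.343. Cidec at 0.0739, Plin1 at 0.0560 and Lep at 0.00962 rested on 6 or fewer counts in each EMT6-P tumor. Car3, Lpl and Cfd overlapped in their per-library values, as did Plin4 and Adipoq, so these neighbours were not separated. In the EMT6-PTR tumors Plin4 stood in the fourth place and not the sixth, at 2.33 CPM per kb, next to Cfd at 2.08.

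In the metastasis the 10 genes split, with Lpl high and Car3, Cfd and Adipoq low. PTR3 was about as low for Car3, Cfd and Adipoq, with 3, 0 and 1 counts against 2, 2 and 0 in the metastasis. The comparison of the metastasis with the PTR tumors has no replicate and no test, and it shares the PTR tumors with the one above. Lpl stood at 234 CPM, 13.1-fold above the mean of the PTR tumors, and made up 89.6% of the sum of the 10 genes there (261 CPM). Pparg stood at 3.18 CPM, 81 counts, 2.67-fold above the PTR mean and above every primary tumor. Cfd had 2 counts and Adipoq, Plin1 and Lep had 0, so that the fat-restricted sum of 0.236 CPM (exact Poisson 95% interval 0.0865 to 0.513 CPM) was below that of every primary tumor but PTR3, with an interval that overlapped those of P2 and PTR3.

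On log2 CPM with a prior count of 2, the metastasis differed from the PTR mean by 4.61 for Lpl, 1.60 for Pparg, -0.41 for Plin4 and -0.67 for Fabp4, and by -4.77 for Car3 and -2.14 for Cfd. At least 4-fold, 1 of 10 genes was above and 2 below, where 9.83% of 18619 genes were above and 1.89% below. The median over the 10 genes was -0.54. Both genes below, Car3 and Cfd, had 2 counts in the metastasis, under the limit that a 0 allows, so the size of these differences depends on the prior count. Car3 in the PTR tumors rests on PTR1, and Cfd mostly on PTR2. Marker sums of other tissues were also high in the metastasis. All 9 lung markers were detected in the metastasis, against 5 to 7 at 0 in each primary tumor except P1, where 1 was at 0. The endothelium sum was 1010 CPM against 154 to 214 CPM in the primary tumors, all 8 markers being detected in each, with Pecam1 at 280 CPM against 60.6 CPM or less. The macrophage sum was 1680 CPM against 1130 to 1500 CPM, but its most abundant markers, the complement genes C1qa and C1qb, stood at 345 and 255 CPM, below the 380 to 480 and 264 to 352 CPM of the primary tumors. Over 7 libraries Lpl correlated with these 3 sums at 0.72, 0.85 and 0.87, the metastasis being highest for Lpl and for all 3. Among the primary tumors PTR3 was lowest for Lpl and for the endothelium and macrophage sums (1.37, 154 and 1130 CPM). Its lung sum was 16.9 CPM, above all primary tumors but PTR2 (27.1 CPM). The part of these tissues in the Lpl and Pparg values was not tested.

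**Figure D4:**
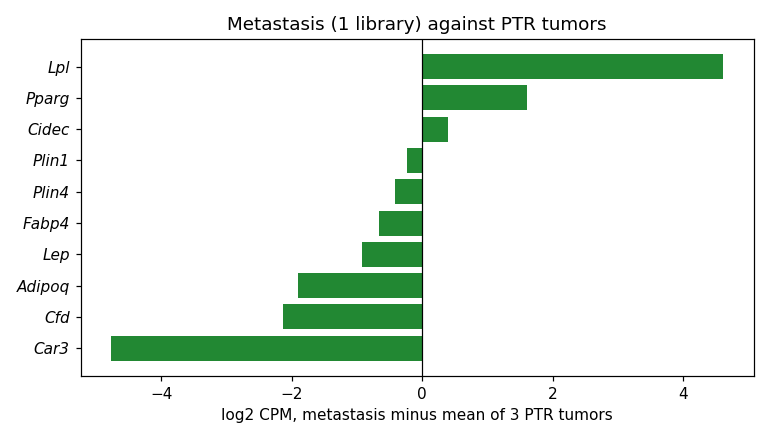
Difference in log2 CPM (prior count 2) between the metastasis (1 library) and the mean of the 3 PTR tumors, 1 bar per adipocyte gene. Lpl lies at 4.61 and Pparg at 1.60, while Car3 lies at -4.77 and Cfd at -2.14.

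Other genes of fat metabolism were read from 7 lists chosen by function, 101 genes in all, of which 79 passed the filter. Under the quasi-likelihood test of edgeR, adjusted by Benjamini-Hochberg over 15645 genes, 0 genes (0%) were called between EMT6-PTR and EMT6-P tumors, and the smallest adjusted p was 0.421. At an unadjusted p under 0.05 there were 1786 genes (11.4%), 15 of them among the 79. DESeq2 called 281 genes and limma-voom 0. The groups were apart for 14 of the 79 higher and 4 lower in EMT6-PTR, against 9.47% and 11.8% of all genes tested, the shares to read beside each list's count below. All values below are therefore of genes that did not pass the test.

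Triglyceride and fatty acid synthesis, with 17 of 20 genes tested, had a median log2 fold change of 0.13 against 0.03 over all genes. Its genes of highest CPM were the desaturases Scd2 and Scd1, at 1260 ± 209 and 254 ± 33.4 CPM in EMT6-P and 1270 ± 136 and 346 ± 144 CPM in EMT6-PTR (SD, n = 3 each), and the fatty acid synthase Fasn, at 260 ± 31.1 and 223 ± 59.1 CPM. Gpam, the mitochondrial enzyme of the first step of glycerolipid synthesis, stood at 5.55, 5.38 and 5.83 CPM in P1 to P3 and at 15.6, 10.1 and 18.0 CPM in PTR1 to PTR3. Its log2 fold change was 1.38 (SE 0.26, edgeR adjusted p = 0.421). Groups were apart for 5 of the 17 genes, 4 higher in EMT6-PTR (Acacb, Me1, Gpam and Lpin1) and 1 lower (Slc25a1). These names were given after their values were seen.

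Lipolysis and the lipid droplet, 15 of 20 tested, had a median of -0.01 and no gene with the groups apart. The caveola genes Cavin1 and Cav1 and the ubiquitous perilipin Plin2 led this list, Plin2 at 422 ± 77.6 CPM in EMT6-P and 318 ± 157 CPM in EMT6-PTR (SD, n = 3 each). Pnpla2, the adipose triglyceride lipase, stood at 22.8 to 27.8 CPM in EMT6-P and at 33.8, 24.2 and 85.9 CPM in PTR1 to PTR3. Its log2 fold change of 0.88 (SE 0.46, edgeR adjusted p = 0.486) was 0.16 without PTR3.

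Fatty acid and glucose uptake, all 13 tested, had a median of 0.41, with 3 genes apart higher and 2 lower. Acsl1, the long-chain acyl-CoA synthetase that activates fatty acids, stood at 14.9, 14.9 and 11.7 CPM in P1 to P3 and at 28.7, 24.1 and 21.7 CPM in PTR1 to PTR3 (log2 fold change 0.84, SE 0.18, edgeR adjusted p = 0.421). Angptl4, a secreted inhibitor of lipoprotein lipase, was lower in every EMT6-PTR tumor, at 114, 108 and 18.8 CPM against 133 to 175 CPM in EMT6-P (log2 fold change -0.93, SE 0.61, edgeR adjusted p = 0.552). Slc27a1 and Irs1, a fatty acid transporter and an insulin signaling adaptor, overlapped between groups.

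Adipogenic transcription factors, 11 of 14 tested, had a median of 0.56, with 4 apart higher and 0 lower. Klf15 stood at 0.468 to 0.877 CPM in EMT6-P and 1.51 to 4.49 CPM in EMT6-PTR (log2 fold change 1.92, SE 0.52, edgeR adjusted p = 0.421). Rxra, the partner receptor of PPARγ, stood at 51.0 to 55.7 CPM and 66.1 to 93.6 CPM (log2 fold change 0.56, SE 0.16, edgeR adjusted p = 0.421). Cebpb and Srebf1, an early adipogenic factor and the lipogenic regulator, overlapped between groups.

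Adipokines, other secreted products and their receptors, 11 of 15 tested, had a median of 0.19, with 2 apart higher and 1 lower. The receptors for adiponectin were steady. Adipor1 stood at 196 ± 11.5 and 183 ± 2.22 CPM and Adipor2 at 76.9 ± 5.36 and 74.2 ± 6.34 CPM in EMT6-P and EMT6-PTR (SD, n = 3 each). Nampt, an enzyme of NAD synthesis that is also secreted, overlapped at 106 ± 12.6 and 142 ± 51.1 CPM. Cmklr1, the receptor for the adipokine chemerin, stood at 20.3 to 24.8 CPM in EMT6-P and 33.5 to 40.2 CPM in EMT6-PTR (log2 fold change 0.71, SE 0.15, edgeR adjusted p = 0.421).

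Brown and beige fat genes, 4 of 10 tested, had a median of 2.86 that rests on few genes and single tumors. Ucp1, the uncoupling protein that defines brown fat, did not pass the filter. Dio2, which activates thyroid hormone, stood at 73.2 CPM in PTR3 and at 1.09 CPM or less in the other 5 primary tumors, and its log2 fold change of 5.40 (SE 2.00, edgeR adjusted p = 0.427) was 0.31 without PTR3. Fabp3 and Cpt1b, which muscle also expresses strongly, were highest in PTR1, at 24.4 and 13.5 CPM. In PTR1 the muscle sum was also highest, and its part was not tested.

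Adipose progenitor genes, 8 of 9 tested, had a median of 0.54, with 1 gene apart higher. Pi16, a marker of interstitial progenitors and other universal fibroblasts, stood at 3.26, 3.09 and 4.79 CPM in P1 to P3 and at 7.64, 19.7 and 44.5 CPM in PTR1 to PTR3 (log2 fold change 2.69, SE 0.64, edgeR adjusted p = 0.421). Without PTR3, the tumor with the highest fibroblast sum, the log2 fold change was 1.87. Dcn, the matrix proteoglycan decorin, stood at 3350 CPM in PTR3 against 32.2 to 105 CPM in the other 5 primary tumors. Pdgfrb was also highest in PTR3, at 562 CPM, and Anxa3 lowest there, at 165 CPM. Dcn and Pdgfra stand in both this list and the fibroblast list, so the 2 sets are not separate measures.

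**Figure D5:**
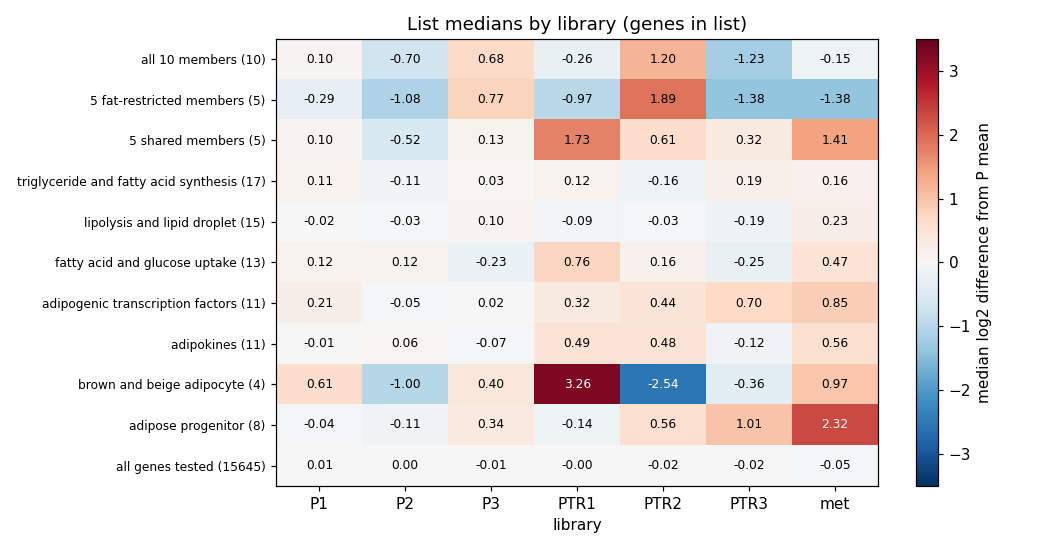
Median difference in log2 CPM from the EMT6-P mean for each gene list (rows, with the number of genes) in each of the 7 libraries (columns); the color scale and the printed numbers give the same value. The all-gene median stays between -0.05 and 0.01, while the 5 fat-restricted genes are highest in PTR2 (1.89) and P3 (0.77) and the brown and beige list swings from 3.26 in PTR1 to -2.54 in PTR2.

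In the metastasis, 16 of 90 list genes were at least 4-fold above the PTR mean on log2 CPM and 1 was below. Of all 18619 genes, 9.83% were above and 1.89% below. A gene that is high only in the metastasis passes the filter over 7 libraries through that library, so the count was also taken over the 79 genes that pass on the primary tumors alone, an alternative added after the values were seen. There 12 were above and 1 below, where 4.8% of 15645 genes were above and the share below was not counted. The 12 were 3 of 15 lipolysis and droplet genes, 3 of 13 uptake genes, 3 of 8 progenitor genes, 1 of 17 synthesis genes, 1 of 11 transcription factors, 1 of 11 adipokine and receptor genes and 0 of 4 brown and beige genes. The names that follow were chosen after their values were seen. G0s2, the inhibitor of adipose triglyceride lipase, stood at 124 CPM, 92.6-fold above the PTR mean of 1.34 ± 1.01 CPM (SD, n = 3). Cd36, a fatty acid receptor of fat, endothelium and macrophages, stood at 166 CPM, 12.5-fold above its own PTR mean of 13.3 ± 6.59 CPM. Gpihbp1, which anchors lipoprotein lipase on capillary endothelium, stood at 140 CPM, 5.49-fold above its own of 25.5 ± 18.1 CPM. Dgat2, the last enzyme of triglyceride synthesis, stood at 22.0 CPM, 10.4-fold above its own of 2.12 ± 0.88 CPM. The 1 gene below was Ebf2, of the adipogenic transcription factors, at 0.0393 CPM against a PTR mean of 0.838 ± 0.59 CPM. Its level in the metastasis was under the limit that a 0 allows. The lung, endothelium and macrophage sums given above are those of the same library, and their part in these values was not tested.

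The 10 genes whose profile over the 7 libraries was most like the mean standardised log2 CPM of the adipocyte genes, out of 18572, were Arhgap8, Hist1h2ad, Zfp35, Cd209a, Hist1h2bn, Mgam, Hist1h4m, Calr-ps, Lrrc4 and Arl5c. Their Pearson correlations ran from 0.9799 to 0.9138 over 7 libraries. As the top of 18572 genes ranked by this same value over few libraries, they were high by selection. Arhgap8 stood at 30.4, 24.4 and 32.4 CPM in P1 to P3, 28.5, 37.3 and 24.8 CPM in PTR1 to PTR3 and 27.8 CPM in the metastasis, highest in PTR2 and low in P2 and PTR3. No gene of the 7 lists was among the 10, and several of them (Hist1h2ad, Cd209a, Hist1h2bn, Hist1h4m) were near the detection limit. Lrrc4 was near it in P2 and PTR3, at 0.14 and 0.156 CPM.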

How the data were processed

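RNA of 6 primary tumors and 1 metastasis was sequenced from stranded polyadenylated libraries. The authors checked reads with FastQC 0.11.5, aligned them with STAR 2.6.0a to mouse GRCm38 and deposited estimated counts per gene from RSEM 1.3.1, before filtering or normalization. All 7 columns were used.

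The adipocyte genes, the other lists and the tests were chosen with earlier results of these data known. Identifiers were matched to GENCODE M21, with a symbol for 53274 of 53465. Estimated counts were rounded, filtered with filterByExpr and given upper-quartile factors. The test was the quasi-likelihood F test of edgeR 4.0.16 in R 4.3.3, 3 EMT6-PTR against 3 EMT6-P tumors, with Benjamini-Hochberg adjustment at 0.05. Standard errors are the log2 fold change divided by the root of F. CPM values use upper-quartile factors over all 7 libraries, and log2 CPM a prior count of 2. The metastasis comparison covers the 18619 genes that pass the filter over 7 libraries. Lengths are those of the principal transcript.

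Genes named are the 10 adipocyte genes, per list the 3 most abundant tested genes and the 1 with the smallest p, the 10 most alike genes and the 2 most abundant of each marker list (endothelium: Pecam1, Cdh5; macrophage: C1qa, C1qb; mammary epithelium: Krt8, Krt18; fibroblast: Col3a1, Col1a1). Outside this rule, Acacb, Me1, Lpin1, Slc25a1, G0s2, Cd36, Gpihbp1, Dgat2 and Ebf2 were named after their values were seen, as were Csn2, Wap, Lalba, Ucp1 and Pdgfra. Alternatives were TMM, DESeq2 1.42.0, limma-voom (limma 3.58.1), other filters, the metastasis in the fit, a replicate block, a prior count of 0.5 and leaving out each tumor. The fits were tested on simulated counts. Python 3.11.15 made tables and plots.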

Additional observations from a re-analysis of the deposited data

How the results depend on the processing

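No gene was called at an adjusted p under 0.05 with edgeR under TMM scaling, with either other filter, with the metastasis in the fit or without any 1 tumor, nor with limma-voom, while DESeq2 called 281 genes. Those 281 included Plin4, Gpam, Acsl1, Cmklr1 and Pi16. At an unadjusted p under 0.05, leaving out 1 tumor gave 618 genes (without P1) to 3234 genes (without PTR3), against 1786 with all 6.

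Directions that turned were those of genes already overlapping between groups. With limma-voom the log2 fold change was -0.57 for Car3, -0.25 for Pparg and -0.27 for Lpl. Leaving out 1 tumor gave -2.71 to 3.61 for Car3, -2.45 to 1.20 for Cfd, -0.34 to 0.49 for Pparg and -0.21 to 1.31 for Lpl. The cause was not tested. Scaling by the total count put the sum of the 10 genes in the metastasis at 270.0 CPM.

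Whether the replicate numbers pair the samples cannot be decided from 3 tumors per group. Deviations of same-numbered tumors correlated at 0.259, 0.252 and 0.0387. Those of differently numbered tumors correlated at -0.285 to 0.0974, and P3 correlated most with PTR1, at 0.0974. With the replicate block 0 genes were called and 1268 had an unadjusted p under 0.05. Under this block Pparg was at -0.15, Car3 at 0.45 and Lpl at 0.04 in log2 fold change.

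Genes with a few counts, such as Plin1 and Lep, are limited by depth. The metastasis has 1 library and no check of its spread.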
